A study of Mus musculus with 11 samples.

Results

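The genes examined were the voltage-gated and related potassium, calcium and sodium channels and the anoctamins of mouse cells with and without ATXN7L3. They were taken by symbol from the protein-coding genes of the mESC and MEF tables: symbols that begin with Kcn, Cacna, Cacnb or Cacng, sodium channel symbols made of Scn, a number and a or b, and Ano followed by a number. This gave 142 of the 34570 genes listed in either table, of which 19124 are protein-coding. Potassium channel genes made up 92 of them, calcium channel genes 26, sodium channel genes 14 and anoctamins 10. Of the 142, 133 are listed for mESCs and 137 for MEFs, with 128 in both.

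RNA-seq of 11 libraries was available, all from the mouse strain background DBA/2 x C57BL/6. The mESCs were 2 Atxn7l3+/+ (WT) and 3 Atxn7l3-/- (KO) libraries, from lines that were each derived from a blastocyst of a heterozygous intercross, taken off feeders after a few passages and kept with LIF in 15% foetal calf serum with the inhibitors PD0325901 at 1 uM and CH99021 at 3 uM. The MEFs, mouse embryonic fibroblasts grown in DMEM with 10% foetal calf serum, were 3 WT and 3 KO libraries from E10.5 embryos, cultured singly, whose head and gastrointestinal tract had been removed. The study calls the mutant cultures MEF-like. The mutation is constitutive, so all cells of a KO embryo or line carry it, and no group received a treatment. ATXN7L3 is the adaptor of the deubiquitylation module of the transcriptional coactivator SAGA, which together with USP22 and related enzymes removes ubiquitin from histone H2B, and the study asked which genes change without it.

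Ion channels are membrane proteins that let ions flow down their gradients. Voltage-gated potassium, calcium and sodium channels open when the membrane depolarises. Sodium channels carry the upstroke of the action potential, potassium channels restore the resting state, and calcium channels couple depolarisation to secretion, contraction and transcription. Each has a pore-forming subunit (most Kcn genes, Cacna1 and the Scn genes ending in a) and accessory subunits that change its gating or its delivery to the surface (Kcne, Kcnab and Kcnip, Cacna2d, Cacnb and Cacng, and the Scn genes ending in b). Inward rectifier (Kcnj) and 2-pore-domain (Kcnk) potassium channels set the resting potential, and anoctamins are calcium-activated chloride channels or lipid scramblases. These genes are best known from neurons and muscle, while fibroblasts and stem cells use a smaller set.

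Library totals ran from 34515342 to 49602605 counts, so that 3 counts in a library were worth 0.0605 to 0.0869 CPM (counts scaled to a common library size). The 142 channel genes took 0.0514 to 0.0785% of the counts in mESC libraries and 0.111 to 0.176% in MEF libraries. Atxn7l3 itself was at 222 and 223 CPM in the WT mESCs and between 0.976 and 3.91 CPM in the KO mESCs. In MEFs it was at 79.6, 104 and 92.8 CPM in WT and still at 49.1, 49.4 and 67.2 CPM in the libraries labelled KO (log2 fold change -0.74, SE 0.21, adjusted p = 0.074 by edgeR's quasi-likelihood test), so the MEF libraries are called by their labels below. These are RNA reads. At the protein level the study could not detect ATXN7L3 in its mutant MEFs, and it reported a strong rise of ubiquitylated H2B there. WT MEF replicate 3 held Xist at 300.2 CPM and Ddx3y at 0.218 CPM, against at most 0.646 and at least 59.2 CPM in the other MEFs, and KO mESC replicates 1 and 2 were low in Ddx3y (3.46 and 0.881 CPM, against at least 90.5 CPM). These sex-linked reads thus differed within groups in both cell types. In mESCs they were mixed, with Xist at 10.95 and 25.31 CPM in the WT libraries. KO mESC replicate 3 had Ddx3y at 224.9 CPM but Kdm5d at 0.6855 CPM. Library sex is therefore not settled for the mESCs, and its part in the results was not tested.

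Levels were first compared between genes, per length, in the deposited reads normalized by library and divided by transcript length in kb. A median over all libraries of a cell type above 10 of these units was counted as expressed. In mESCs 54 of the 133 listed channel genes were expressed (40.6%, against 73.3% of the protein-coding genes listed), and in MEFs 60 of 137 (43.8%, against 73.0%). By class, 29 of 84 potassium, 11 of 26 calcium, 7 of 13 sodium and 7 of 10 anoctamin genes were expressed in mESCs. In MEFs these numbers were 35 of 88, 15 of 25, 3 of 14 and 7 of 10. The anoctamins thus had the largest expressed share of the 4 classes in both cell types, and the sodium channels the smallest in MEFs.

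The most abundant channel gene per length in WT mESCs was Cacna1a, the pore of P/Q-type calcium channels, at a median of 1369 normalized reads per kb (1328 and 1410 in the 2 libraries). It was followed by the acid-sensitive 2-pore-domain gene Kcnk5 (782), Ano9 (709), the scramblase gene Ano6 (501), the sodium channel accessory gene Scn3b (478) and the potassium channel accessory gene Kcnab2 (414). Kcnk5 ranged from 558 to 1006 and Ano9 from 646 to 771 in those libraries, so these neighbours in the order overlapped. In WT MEFs the highest was Ano10 (median 1766, range 1448 to 1915), followed by Ano1 (1514, 234 to 1751), Ano6 (1463) and Cacng7 (1387), with Cacnb3 (1105) also high. Ano1, the calcium-activated chloride channel of secretory and pacemaker cells, was the most variable of these, since WT replicate 2 lay far below the other WT libraries. The highest potassium channel gene of WT MEFs was Kcnk2, a mechanosensitive 2-pore-domain channel, at 697.

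WT MEFs and WT mESCs were then compared in 1 fit of the 11 libraries. Of 110 channel genes tested, 42 were higher in WT MEFs (38.2%, against 26.7% of all genes tested) and 23 were lower (20.9%, against 27.1%), at an adjusted p of 0.05 or less. The higher ones were 25 potassium, 9 calcium, 2 sodium and 6 anoctamin genes, and the lower ones 16, 2, 3 and 2. Among the calcium channels, Cacna1c, the L-type pore of heart and smooth muscle, had 0.324 and 0.329 CPM in WT mESCs and 153, 36.3 and 86.4 CPM in WT MEFs, a 282-fold difference (log2 8.12). Its accessory partner Cacnb2 went the same way, from 0.0381 and 0.0617 CPM to 23.0, 7.05 and 10.3 CPM (ratio 294 on 5 counts over the WT mESCs, 95% exact interval 126 to 907, counting error only). These genes were near silent in stem cells and clearly read in fibroblasts, with no overlap between the groups.

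Kcnab1, which encodes a cytoplasmic beta subunit of the Kv1 channels, had 0.0762 and 0.0411 CPM in WT mESCs and 17.9, 12.9 and 42.5 CPM in WT MEFs (ratio 419 on 6 mESC counts, interval 192 to 1143). Kcne4, a single-span subunit that damps Kv currents, was 204-fold higher in WT MEFs on 4 mESC counts (interval 79.5 to 751), but mainly through replicate 2 at 25.1 CPM, against 2.04 and 2.02 CPM in the others. Kcnb2, a delayed rectifier pore, had no count in WT mESCs and 0.550, 0.624 and 2.29 CPM in WT MEFs, which is at least 19.4-fold higher against a floor of 3 counts per library. In the other direction Ano9 had 29.2 and 35.6 CPM in WT mESCs and no count in any WT MEF library, at least 427-fold lower. Kcnu1, the sperm-type relative of the large-conductance channel, was 220-fold lower on 2 counts over the WT MEFs (interval 60.5 to 1823). Kcng3 (70.7-fold, interval 19.1 to 591, also on 2 counts) and the inward rectifier Kcnj12 (52.2-fold) were also lower in MEFs.

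**Figure D1:**
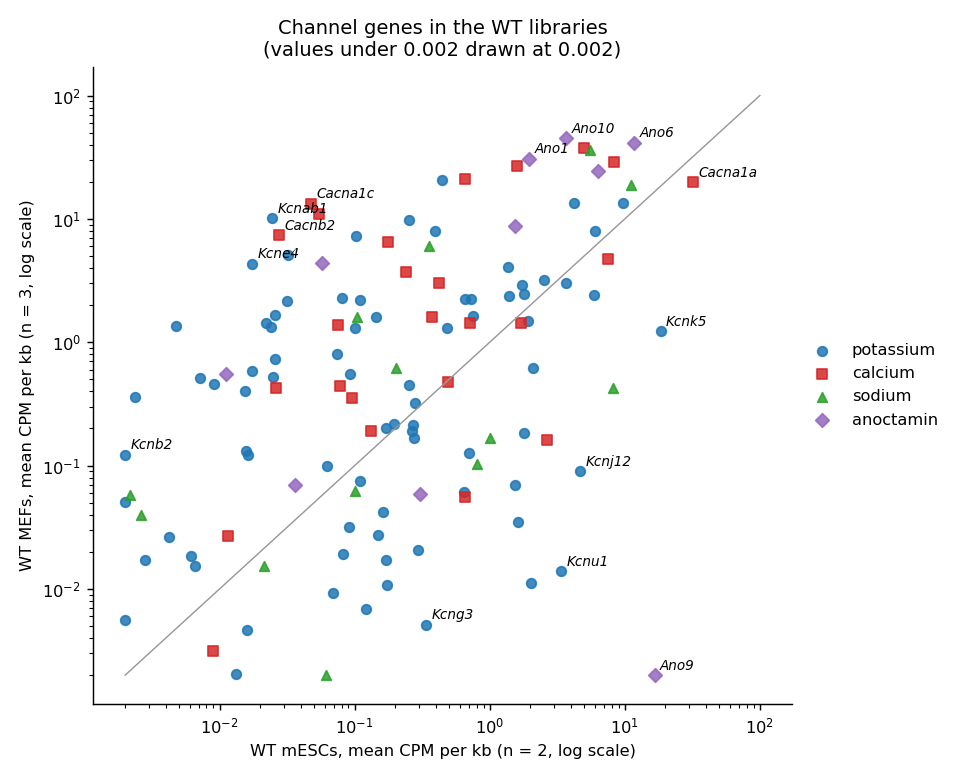
Mean level of each channel gene in the WT libraries, in CPM per kb of transcript on log scales, with WT mESCs (n = 2) on the horizontal and WT MEFs (n = 3) on the vertical axis and 1 symbol per gene by class. The diagonal marks equal levels, and means under 0.002 are drawn at 0.002. Cacna1c, Cacnb2 and Kcnab1 lie far above the diagonal and Ano9, at 0 in WT MEFs, lies at the bottom right.

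In mESCs, loss of ATXN7L3 moved few channel genes, in both directions. Of the 133 listed, 85 had enough counts to be tested, and the 48 that did not reached at most 0.730 CPM in any library. At an adjusted p of 0.05 or less, 5 were higher in KO (5.88%, against 3.08% of all genes tested) and 6 were lower (7.06%, against 3.85%). The median log2 fold change was 0.15 over the channel genes and 0.04 over all genes tested. By class the medians were 0.19 for potassium, -0.55 for calcium, -0.39 for sodium and 0.32 for anoctamin genes. The groups did not overlap, higher in KO, for 22 of the 85 (25.9%, against 24.6% of all genes) and, lower in KO, for 19 (22.4%, against 25.1%), which is near the background.

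The higher genes included potassium channel, sodium channel accessory and anoctamin genes. Kcnd1, a pore of the transient A-type potassium current on chromosome X, had 8.33 and 8.73 CPM in WT and 34.9, 34.2 and 26.1 CPM in KO, a 3.72-fold rise (log2 fold change 1.89, SE 0.27, adjusted p = 0.0209). The groups stood well apart, and the part of library sex in this rise was not tested. Scn3b, an adhesion-type accessory subunit of sodium channels, rose from 21.9 and 15.8 CPM to 43.3, 43.9 and 48.6 CPM (1.26, SE 0.24, adjusted p = 0.0313). Ano9 rose from 32.9 and 39.2 CPM to 89.1, 83.1 and 109 CPM (1.38, SE 0.22, adjusted p = 0.023). Both genes had all KO libraries above both WT libraries. Kcnk12, a 2-pore-domain gene whose product passes little current alone, rose from 0.687 and 0.498 CPM to 3.46, 3.17 and 2.06 CPM (2.28, SE 0.53, adjusted p = 0.0467).

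The lower genes were 3 potassium channels, 2 calcium channel gamma genes and Ano1. Kcns3, a silent subunit that forms channels only with Kv2 partners, had 3.61 and 5.41 CPM in WT and 0.421, 0.429 and 0.422 CPM in KO (-3.40, SE 0.48, adjusted p = 0.0205). Kcnd3, an A-type pore like Kcnd1, had 0.773 and 0.724 CPM in WT and 0, 0.0238 and 0.0264 CPM in KO, the opposite direction to Kcnd1. With 2 counts over the KO libraries the ratio of Kcnd3 was 42.4 (95% exact interval 11.3 to 357). No KO library held more than 3 counts of Kcnd3. It passed the count filter through the WT libraries, so its call rests on near-absent KO reads. The inward rectifier Kcnj12 fell from 13.1 and 12.5 CPM to 4.99, 4.55 and 4.35 CPM (-1.47, SE 0.32, adjusted p = 0.041). Cacng5 and Cacng4, gamma subunits that in neurons accompany glutamate receptors, lie 80.0 kb apart on chromosome 11. Cacng5 had 2.43 and 2.99 CPM in WT and 0.0601, 0.0953 and 0.475 CPM in KO (-3.66, SE 0.81, adjusted p = 0.0411). Cacng4 had 0.666 and 0.973 CPM in WT and 0.0601, 0.119 and 0.106 CPM in KO (-3.05, SE 0.58, adjusted p = 0.0313). Both neighbours fell, from low levels. Ano1 had 2.94 and 1.31 CPM in WT and 0.421, 0.191 and 0.158 CPM in KO (-3.05, SE 0.64, adjusted p = 0.0374).

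Among the other sodium channel genes of mESCs, none of the 6 tested pore genes passed the test, with log2 fold changes from -2.30 (Scn4a) to 0.23 (Scn8a). The accessory gene Scn4b was at 1.79 (adjusted p = 0.0952) and Scn2b at -1.63 (0.114). Of the remaining anoctamins, Ano10 stood at 1.50 (adjusted p = 0.0719), Ano8 at 0.73, Ano6 at 0.32, Ano7 at -0.09 and Ano3 at -0.23. Summed over a class, sodium channel genes had 53.1 and 49.8 CPM in WT and 84.9, 88.0 and 103 CPM in KO, and anoctamins 158 and 135 CPM against 208 to 258 CPM. Scn3b alone made up 41.2 and 31.7% of the sodium sum in WT and 51.1, 49.8 and 47.2% in KO. Of the 10 sodium channel genes tested, 6 had a log2 fold change below 0. The mESC calls rested on few libraries: without WT replicate 1, WT replicate 2 or KO replicate 1, 0 channel genes were called in either direction by edgeR, with 20, 18 and 26 at an unadjusted p under 0.05. The share of all genes called without each library was not taken. In the full set of libraries 28 of the 85 had an unadjusted p under 0.05 (32.9%, against 29.9% of all genes). DESeq2 called 11 higher and 11 lower of the 84 it gave an adjusted p (13.1% each, against 10.0% and 9.65% of all genes). Under the study's thresholds (expressed, and at least 1 on the log2 scale) 5 were higher (5.88%, against 2.75%) and 2 lower (2.35%, against 1.9%).

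**Figure D2:**
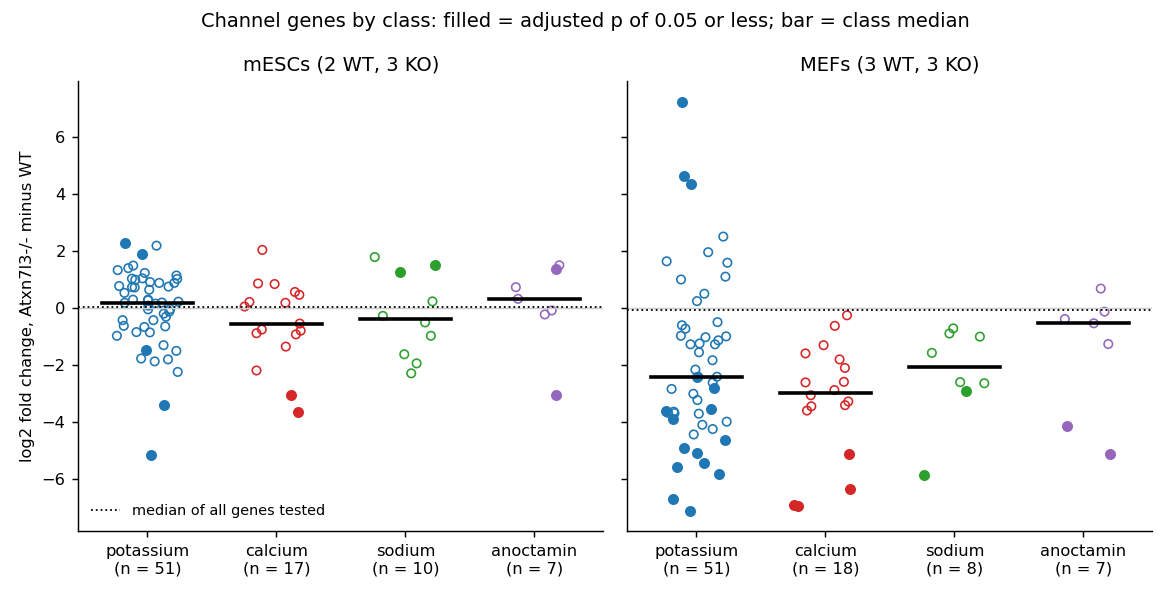
Log2 fold change of the libraries labelled KO against WT for each tested channel gene, by class, in mESCs (2 WT, 3 KO) and MEFs (3 WT, 3 KO). Filled symbols passed an adjusted p of 0.05, bars are class medians and the dotted line is the median of all genes tested. In MEFs the potassium, calcium and sodium medians lie at -2.42, -2.98 and -2.09, and in mESCs all 4 medians lie between -0.55 and 0.32.

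In MEFs the channel genes were lower in the libraries labelled KO. Of 137 listed, 84 were tested: 21 were lower (against 4.09% of all genes tested) and 3 were higher (3.57%, against 4.78%). The median log2 fold change was -2.51, against -0.06 over all genes, and 72 of the 84 were below 0 (85.7%, against 52.5%). The groups did not overlap, lower in KO, for 44 (52.4%, against 19.8%) and, higher in KO, for 8 (9.52%, against 20.0%). Fits with the replicate number as a block treat same-numbered MEF libraries as pairs, which the sample titles do not state. They called 34 lower (40.5%, against 8.25%) and 5 higher (5.95%, against 5.45%), and 23 of the 24 unblocked calls remained. Genes called lower with the block alone included Kcnmb1, Kcnc2, Kcnn3, Kcnj4, Kcnk1, Kcnk10, Kcnd3, Kcns1, Cacna1a, Cacnb4, Cacng8 and Ano3 (adjusted p 0.0114 to 0.04), and those called higher were Kcnk6 (0.0314) and Kcnt2 (0.0325). Under the study's thresholds 10 were lower (11.9%, against 3.02%) and 2 higher (2.38%, against 4.17%). Since the samples are bulk RNA, fewer cells of a type and less RNA per cell cannot be told apart.

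Passing the count filter favoured differences. Of the 84, 5 had no KO library above 3 counts (Kcna1, Kcnn2, Cacna1e, Cacna1s and Scn8a), and all 5 were called lower. These 5 passed the filter through the WT libraries, and their log2 fold changes below rest on near-absent KO reads. Another 1, Kcna7, had no WT library above 3 counts and was called higher. Over the other 78, 16 were lower and 2 higher, and the share of all genes under the same restriction was not taken. The medians and counts over the 84 and by class include the 5 and Kcna7. The 53 untested genes included 6 that exceeded 1 CPM in some library. By class, 13 of 51 potassium, 4 of 18 calcium, 2 of 8 sodium and 2 of 7 anoctamin genes were called lower (21, 7, 3 and 3 with the block), and the 3 higher genes were all potassium channels. Medians were -2.42, -2.98, -2.09 and -0.54, and all 18 calcium and all 8 sodium channel genes tested were below 0.

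Among the Kv pores, the Shaker-type genes Kcna1, Kcna5 and Kcna6 sit side by side on chromosome 6, separated by 61.9 and 105 kb (mm10, minus strand). Kcna6 (126708329 to 126740674) had 6.73, 6.41 and 14.1 CPM in WT and 0.323, 0.0912 and 0.686 CPM in KO (-4.63, adjusted p = 0.0265). Kcna1 (126640397 to 126646384) had 1.88, 0.279 and 2.29 CPM in WT and 0.0461, 0.0456 and 0.0274 CPM in KO (-5.11, adjusted p = 0.0299). Kcna5 (126532551 to 126535412) had 1.97, 1.25 and 0.806 CPM in WT and 0.0692, 0.159 and 0.0274 CPM in KO (-3.91, adjusted p = 0.0297). All 3 neighbours fell, Kcna1 to at most 2 counts in a KO library, and none had enough counts to be tested in mESCs. Kcnd2, an A-type pore, had 1.84, 3.85 and 2.42 CPM in WT and 0.161, 0.0684 and 0.0274 CPM in KO (-4.91, adjusted p = 0.0191). The silent subunit gene Kcnf1 was more uneven, at 20.0, 0.641 and 8.67 CPM in WT and 0.346, 0.159 and 0.0823 CPM in KO (-5.61, adjusted p = 0.0478). Kcnq5, which contributes to the slow M-type current, had 23.6, 12.5 and 16.2 CPM in WT and 3.90, 2.46 and 3.40 CPM in KO, 5.36-fold lower (-2.42, adjusted p = 0.0193). Kcnb2 was also lower (-3.61, adjusted p = 0.0456). Kcna5, Kcnq5 and, further below, Kcnj10 fall outside the rule that chose the named genes and were named after their values were seen, to complete the 21.

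Of the accessory genes, Kcne1l (Kcne5), a single-span subunit encoded on chromosome X, was at 10.6, 4.79 and 6.06 CPM in WT and 0.115, 0.0228 and 0.0549 CPM in KO, 116-fold lower on 8 KO counts (95% exact interval 58.7 to 269.5, -6.73, adjusted p = 0.01). Whether library sex has a part in the level of this gene was not tested. Kcne1l was called under each of the 14 alternative settings in which it was tested. Kcne4 had 1.88, 22.4 and 1.81 CPM in WT and 0.0461, 0 and 0.137 CPM in KO (-7.14, adjusted p = 0.0455), and with the block its adjusted p was 0.0577. Its level thus rested on WT replicate 2. Of the 2-pore-domain genes, Kcnk3, an acid-sensitive background channel, was even in WT at 2.80, 2.20 and 3.01 CPM, with 0.0692, 0 and 0.110 CPM in KO (-5.45, adjusted p = 0.024). Kcnk2, which responds to stretch, had 43.5, 14.7 and 24.1 CPM in WT and 4.27, 3.88 and 3.51 CPM in KO (7.05-fold lower, -2.82, adjusted p = 0.0201). The calcium-activated small-conductance gene Kcnn2 had 5.97, 0.557 and 2.44 CPM in WT and 0.0692, 0 and 0.0823 CPM in KO (-5.84, adjusted p = 0.0426). The glial inward rectifier Kcnj10 had 3.11, 2.73 and 0.806 CPM in WT and 0.277, 0.114 and 0.165 CPM in KO (-3.56, adjusted p = 0.0359).

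The 3 higher genes differed in scale. Kcnab1 (chromosome 3, 65109384 to 65378223, plus strand) had 16.5, 11.5 and 38.1 CPM in WT and 444, 623 and 292 CPM in KO, 20.6-fold higher (log2 fold change 4.36, SE 0.57, adjusted p = 0.0139). Per length it became the most abundant channel gene of the KO MEFs, at a median of 7887 normalized reads per kb (5044 to 11170), and it made up 74.5 to 82.6% of the summed potassium channel CPM there. It was called under each of 15 alternative settings. Kcnh7, an ether-a-go-go related pore known from neurons, had 0.188, 0 and 0.218 CPM in WT and 36.0, 24.6 and 5.35 CPM in KO (163-fold, 7.26, adjusted p = 0.0231). Kcna7, a Shaker-type pore known from muscle, had 0.0188, 0 and 0.0218 CPM in WT, 2 counts in all, and 0.415, 0.479 and 0.412 CPM in KO (ratio 29.5, 95% exact interval 7.78 to 250). Its KO level was even but low. Genes on the opposite strand overlap Kcnh7 and Kcnab1, and whether the counting used strand is not given in the sources used here: Gca, which overlaps Kcnh7, had 10.7, 4.63 and 6.62 CPM in WT and 44.8, 86.4 and 46.7 CPM in KO (3.02, adjusted p = 0.0169), and A330015K06Rik, which overlaps Kcnab1, rose from 0.188, 0.0557 and 0.218 CPM to 0.946, 1.003 and 0.933 CPM (2.60, adjusted p = 0.0426). Gca was highest in KO replicate 2 and Kcnh7 in KO replicate 1, and the part of shared reads was not tested.

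**Figure D3:**
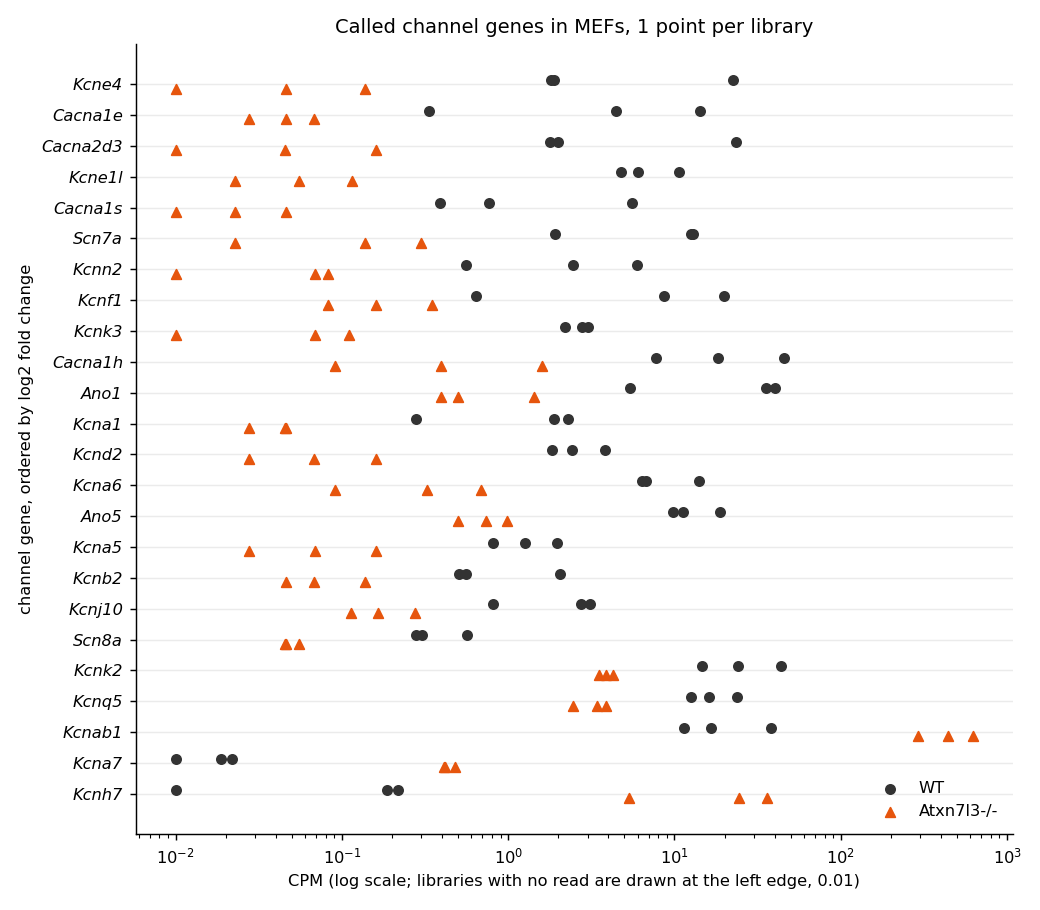
Level in CPM, on a log scale, of each of the 24 channel genes called in MEFs, with 1 symbol per library (3 WT, 3 labelled KO), and libraries without a read drawn at 0.01. The WT and KO symbols of each gene do not overlap. Kcna7, Kcnh7 and Kcnab1, at the bottom, are the 3 genes with KO above WT.

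Calcium channel genes fell in each subunit group except beta and gamma, where no gene passed the unblocked test. Of the pore genes, Cacna1e, the R-type channel, had 14.2, 0.334 and 4.42 CPM in WT and 0.0461, 0.0684 and 0.0274 CPM in KO (-6.96, adjusted p = 0.0403). Cacna1h, a T-type channel that opens at small depolarisations, had 7.76, 45.6 and 18.4 CPM in WT and 0.392, 0.0912 and 1.59 CPM in KO (-5.12, adjusted p = 0.0459). Cacna1s, the skeletal muscle L-type pore, had 5.51, 0.390 and 0.763 CPM in WT and 3 counts over all KO libraries (ratio 105, 95% exact interval 35.5 to 510). The WT libraries of these genes spread widely, and different WT libraries led for different genes. The accessory gene Cacna2d3 had 1.78, 23.3 and 2.00 CPM in WT and 0.161, 0.0456 and 0 CPM in KO (-6.94, adjusted p = 0.047), but it was called in 0 of the 6 fits that left out 1 library and stood at -4.66 without WT replicate 2. Cacna1c was at 141, 32.4 and 77.3 CPM in WT and 9.20, 0.820 and 48.1 CPM in KO, groups that overlapped (adjusted p = 0.278). Summed over the class, calcium channel genes had 584, 406 and 425 CPM in WT and 124, 66.4 and 245 CPM in KO.

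Of the sodium channels, Scn7a, an atypical pore that senses extracellular sodium, had 12.96, 1.92 and 12.6 CPM in WT and 0.2998, 0.0228 and 0.137 CPM in KO (-5.88, adjusted p = 0.0328). Scn8a, a main pore of neuronal axons, was low throughout, at 0.563, 0.279 and 0.305 CPM in WT and 0.0461, 0.0456 and 0.0549 CPM in KO (-2.91, adjusted p = 0.0308). Values that did not pass the test were -2.61 (Scn4b), -1.58 (Scn2a), -1.01 (Scn3a), -0.90 (Scn3b) and -0.72 (Scn2b). The class summed to 167, 71.7 and 92.8 CPM in WT and 35.5, 12.4 and 31.4 CPM in KO.

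Among the anoctamins, Ano1 (chromosome 7, 144588549 to 144751974) had 35.3, 5.38 and 40.0 CPM in WT and 0.392, 0.501 and 1.43 CPM in KO, 34.8-fold lower (-5.12, SE 0.94, adjusted p = 0.0284). Ano5, an intracellular anoctamin known from muscle and bone, had 18.9, 9.75 and 11.3 CPM in WT and 0.738, 0.501 and 0.988 CPM in KO, 17.9-fold lower (-4.16, SE 0.48, adjusted p = 0.0106), and was called under each of 15 alternative settings. Ano6 had 199.5, 191 and 241 CPM in WT and 298, 306 and 406 CPM in KO without overlap (0.68, adjusted p = 0.0958). The others stood at -1.27 (Ano3, adjusted p = 0.0237 with the block), -0.54 (Ano4), -0.39 (Ano8) and -0.13 (Ano10) and did not pass the unblocked test. Because Ano6 supplied 44.7 to 53.1% of the anoctamin CPM in WT and 67.2 to 75.0% in KO, the class sum overlapped, at 446, 360 and 484 CPM in WT and 444, 408 and 559 CPM in KO. Potassium channels likewise summed to 441, 230 and 250 CPM in WT and 595, 755 and 376 CPM in KO, carried by Kcnab1.

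**Figure D4:**
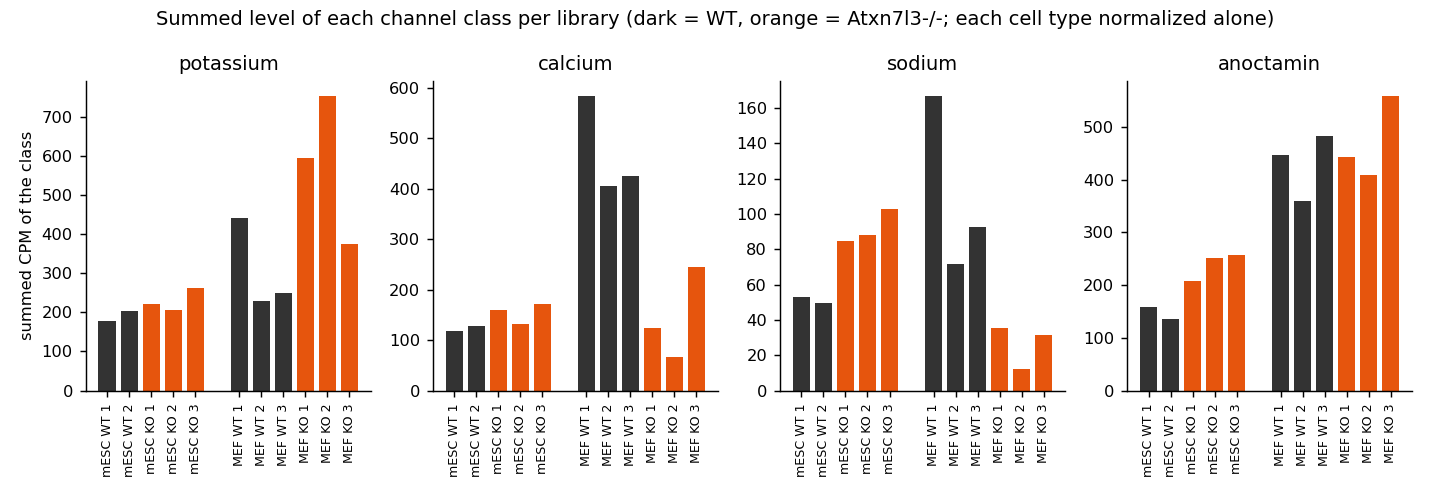
Summed CPM of the channel genes of each class in every library (dark, WT; orange, labelled KO; bars start at 0, and each cell type was normalized alone). In MEFs the calcium sums are 406 to 584 CPM in WT and 66.4 to 245 CPM in KO, while the anoctamin sums of the groups overlap.

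The MEF calls depended on the libraries and settings. Of the 24 called genes, Kcne4, Cacna2d3 and Kcnf1 were called in 3 of 13, 4 of 13 and 6 of 14 alternative settings, and the others in 1 in 2 or more. Without WT replicate 1, 2 or 3 the count of lower channel genes was 4, 16 and 2, and without KO replicate 1, 2 or 3 it was 3, 3 and 14. The share of all genes called in these fits was not taken, so a loss of calls over all genes cannot be told apart. The count of higher genes was 1, 3 and 1 and then 1, 1 and 8. Among the 44 genes that were lower in KO without overlap, WT replicate 1 was the highest WT library for 23, replicate 2 for 14 and replicate 3 for 7, and KO replicate 2 was the lowest KO library for 30. The ratio of the highest to the lowest WT library had a median of 3.75 and reached 42.5. Over all genes tested in MEFs, not the channel genes alone, Pearson's r of log2(CPM + 1) was 0.919 to 0.964 between WT libraries. It was 0.951 to 0.975 between KO libraries and 0.845 to 0.932 between genotypes, as a description over genes of the same libraries.

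Markers of other cells moved with these results in MEFs. Of 9 tested neuron markers 5 were lower in KO (log2 fold changes Map2 -3.28, Stmn2 -6.83, Nefl -8.09, Dcx -5.78, Gap43 -3.17), and the list summed to 167 to 316 CPM in WT and 10.1 to 45.3 CPM in KO, with Snap25 at 0 in every KO library. Schwann and neural crest markers were lower for 3 of 7 (23.6 to 123 CPM in WT, 3.21 to 7.86 CPM in KO), and Myh11 was the 1 of 6 smooth muscle markers called lower (list 7895 to 13210 CPM in WT, 1147 to 5040 CPM in KO). Cardiac and skeletal muscle markers were lower for 2 of 7 (33.9 to 110.5 CPM and 19.0 to 196 CPM), and 0 of 3 neural progenitor markers passed the test by edgeR (2 at an unadjusted p under 0.05 and 2 by DESeq2, at 75.9 to 725 CPM and 21.8 to 67.8 CPM). Mesothelium markers were higher for 5 of 6, at 17.6 to 43.1 CPM in WT and 5373 to 7623 CPM in KO. Fibroblast markers were called for 0 of 11 by edgeR (2 at an unadjusted p under 0.05, and 2 by DESeq2), at 19650 to 50870 CPM in WT and 31920 to 49200 CPM in KO. These markers were thus abundant in both groups, which does not settle the identity of the cells. Macrophage markers were called for 0 of 10 by edgeR (1 at an unadjusted p under 0.05 and 1 by DESeq2), at 543 to 1114 CPM in WT and 808.5 to 5516 CPM in KO, with KO replicate 1 the highest. In mESCs neuron markers were lower for 2 of 8 (388 to 468 CPM against 217 to 313 CPM) and pluripotency markers for 1 of 8, at 4151 to 4935 CPM in WT and 4096 to 5070 CPM in KO. Fibroblast markers were called higher for 1 of 10 there (6 at an unadjusted p under 0.05), at 1590 to 2713 CPM in WT and 3577 to 6069 CPM in KO. Smooth muscle markers were called for 0 of 6 by edgeR (3 at an unadjusted p under 0.05 and 2 by DESeq2), at 84.1 to 125.5 CPM and 212 to 291 CPM, and macrophage markers for 0 of 4 (2 and 1), at 32.5 to 67.9 CPM and 73.3 to 132 CPM. The part of these cell types in the channel results was not tested.

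The windows that RefSeq gives for the genes (GRCm38.p6) were read for 4 members, 250 bases immediately before a transcript start. They are shown for Ano1, the only channel gene called in both cell types, for Kcna5 and Kcna6, the outer genes of the chromosome 6 cluster that fell in MEFs, and for Kcnh7, the gene with the largest rise there. Windows were found for 105 of the 142 channel genes, too few for a comparison over the genes. Capitals mark matches on either strand to TATAAA for the TATA box, GGGCGG for the GC box, CCAAT for the CCAAT box, CACGTG for the E-box, TGANTCA for the AP-1 site and TGACGTCA for the cAMP response element, and in the 4 windows no match overlaps another. The windows, all on the minus strand and written 5′ to 3′, are chr7:144738574-144738823, chr6:126535556-126535805, chr6:126740675-126740924 and chr2:63184288-63184537, in the order below.
Ano1: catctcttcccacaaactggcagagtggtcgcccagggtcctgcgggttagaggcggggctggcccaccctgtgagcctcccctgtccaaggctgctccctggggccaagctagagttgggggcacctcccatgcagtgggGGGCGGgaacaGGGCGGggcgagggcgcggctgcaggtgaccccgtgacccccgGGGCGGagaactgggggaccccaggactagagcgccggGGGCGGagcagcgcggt
Kcna5: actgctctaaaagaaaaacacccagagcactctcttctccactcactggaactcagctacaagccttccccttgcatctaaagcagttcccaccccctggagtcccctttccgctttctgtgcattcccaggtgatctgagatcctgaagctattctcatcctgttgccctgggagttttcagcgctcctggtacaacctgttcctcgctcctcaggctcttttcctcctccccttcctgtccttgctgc
Kcna6: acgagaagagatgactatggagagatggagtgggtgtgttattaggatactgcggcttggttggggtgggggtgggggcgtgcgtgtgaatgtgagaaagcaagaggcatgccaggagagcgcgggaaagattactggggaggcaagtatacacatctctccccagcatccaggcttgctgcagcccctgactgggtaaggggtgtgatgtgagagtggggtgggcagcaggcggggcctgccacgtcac
Kcnh7: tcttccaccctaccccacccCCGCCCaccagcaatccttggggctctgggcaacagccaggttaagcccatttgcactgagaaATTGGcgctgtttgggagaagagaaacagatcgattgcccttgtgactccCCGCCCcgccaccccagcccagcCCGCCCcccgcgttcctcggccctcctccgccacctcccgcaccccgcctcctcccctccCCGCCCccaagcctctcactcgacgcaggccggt
Ano1 and Kcnh7 each held 4 GC boxes, a motif present in 32.7% of all 32841 windows, and were 72.0% and 67.6% GC, against a median of 52.4% over all windows. Kcnh7 also held 1 CCAAT box, a motif of 33.9% of windows. Kcna5 (53.2% GC) and Kcna6 (58.8% GC) held none of the 6 motifs. TATA boxes occur in 12.4% of all windows, E-boxes in 6.02%, AP-1 sites in 6.75% and cAMP response elements in 1.55%, and none of the 4 windows held one. A match is a description of letters and says nothing of binding.

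The effect of genotype was compared between the cell types by the interaction term in the fit of the 11 libraries. Of 110 channel genes tested, 14 had a lower effect in MEFs (12.7%, against 5.25% of all genes tested) and 4 a higher one (3.64%, against 6.17%). The size given is the log2 fold change in MEFs minus that in mESCs. The effects differed most for Kcnk12 (-9.06, adjusted p = 0.0309), Cacna2d3 (-8.40, 0.0267), Kcne1l (-6.60, 0.00849), Kcnn2 (-6.40, 0.0199), Cacna1h (-5.53, 0.0376), Cacng6 (-5.47, 0.0411), Kcna6 (-4.77, 0.0224), Kcnj4 (-4.55, 0.0441), Kcnmb4 (-4.53, 0.0448) and Kcna7 (4.44, 0.014). Kcnk12 rested on few MEF reads, 17, 0 and 26 counts in WT and none in KO. Cacna2d3, Kcne1l and Kcna6 had 2 to 9, 1 to 3 and 6 to 9 counts per mESC library, too few for a test in mESCs alone, so their differences rest on the change in MEFs. With the replicate block the counts were 8 lower and 2 higher. Kcnd1, called higher in mESCs and not called in MEFs, had effects of opposite sign at well-read levels. Kcnd1 had 8.29, 11.4 and 6.21 CPM in WT MEFs and 3.74, 2.53 and 4.36 CPM in KO, and its effects differed by -3.12 (SE 0.50, adjusted p = 0.00693).

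Of 59 channel genes tested in both cell types alone, Ano1 was the 1 called in both, out of 7 called in mESCs and 10 called in MEFs. It was lower in both, and the difference of its effects, -2.02, did not pass the test (adjusted p = 0.258). Ano9, raised in KO mESCs, was read in MEFs only from KO libraries, with 6, 7 and 2 counts against 0 in WT, so its level there stayed far below that of mESCs.

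**Figure D5:**
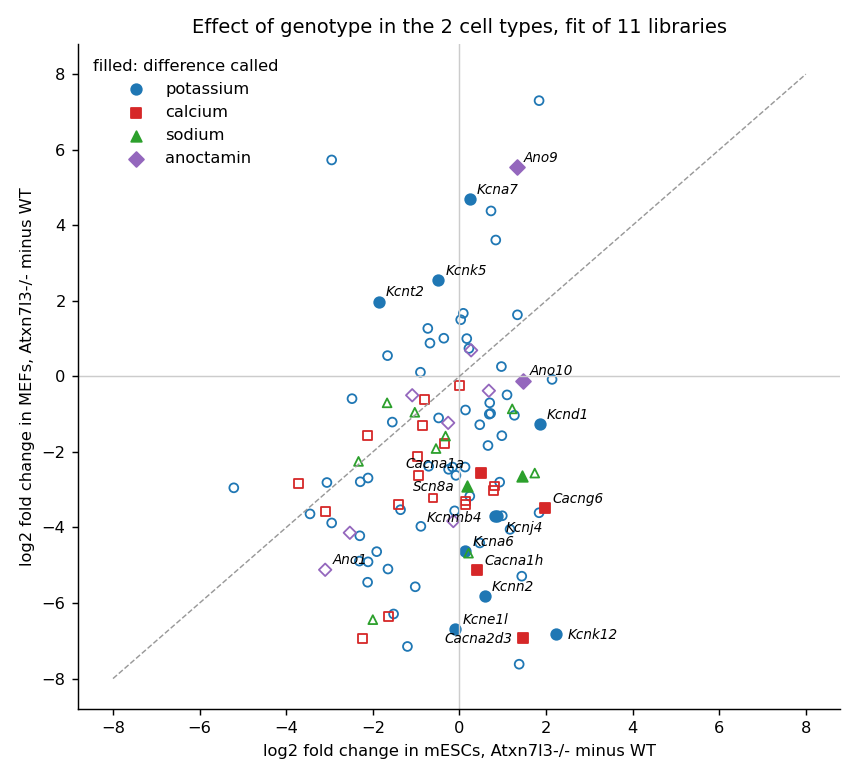
Log2 fold change of KO against WT in mESCs (horizontal) and MEFs (vertical) for each channel gene in the fit of 11 libraries, by class. Filled symbols, most of them named, are the genes whose effects differed between cell types at an adjusted p of 0.05 or less, and Ano1 is named for comparison. Most symbols lie below 0 on the vertical axis, and Kcnd1 lies right of and below the origin.

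A list of 70 genes that work beside these channels was read in the same fits. In mESCs 58 were tested, of which 4 rose (6.90%, against 3.08% of all genes) and 2 fell (3.45%, against 3.85%, near the background). Among those that rose were Stim1 (log2 fold change 1.22) and Orai2 (1.64), sensor and pore of store-operated calcium entry, and the calcium release channel gene Ryr2 (1.59). The 2 that fell were Rest (-0.94, adjusted p = 0.0406), the repressor of neuronal genes outside neurons, and its cofactor Rcor2 (-1.42, adjusted p = 0.0228). In MEFs 60 were tested, of which 4 rose (6.67%, against 4.78%) and 8 fell (13.3%, against 4.09%). Hcn4 (6.25), a pacemaker channel gene, Itpr1 (2.11), Stim2 (1.41) and Trpm7 (1.41) rose. Among those that fell were the sodium leak channel gene Nalcn (-3.84), Fgf14 (-3.67), which binds sodium channels, Lrrc55 (-5.63), Stac2 (-5.70), Gem (-3.37), Ryr2 (-2.65) and Trpv4 (-3.55). Lrrc55, Lrrc26 and Lrrc38 together had only 0.557 to 0.638 CPM in WT and at most 0.0231 CPM in KO. Lrrc55 thus passed the count filter through the WT libraries, and its value rests on near-absent KO reads. Ryr2 thus rose in mESCs and fell in MEFs, and Rest in MEFs was at 0.38 (adjusted p = 0.31). None of the volume-regulated anion and other chloride channel genes passed the test by edgeR in either cell type (0 of 16 tested in mESCs and 0 of 13 in MEFs, with 1 and 3 at an unadjusted p under 0.05 and 1 and 1 by DESeq2).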

How the data were processed

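Raw counts and normalized values per gene were used as deposited, 1 table per cell type. The authors trimmed reads, mapped them to mm10 and counted them per gene, and the submitters' processing notes name bcl2fastq 2.17.1.14, cutadapt 1.10, STAR 2.5.3a, HTSeq 0.6.1p1 and DESeq2 1.16.1. The counting annotation and strand setting are not given in the sources used here. The deposited normalized signal is counts divided by a size factor and by the median transcript length in kb. Another 12 columns of per-sample values (11 of normalized counts without length and 1 of medians) were not used, and the authors' fold changes and p-values were not used either. A further WT mESC dataset of the study was not analysed here. The study left it out because in a principal component analysis it grouped apart from the remaining replicates. The spread between the 2 WT mESC libraries may therefore be understated.

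Counts were tested with edgeR 4.0.16 (filterByExpr, TMM, robust quasi-likelihood test, R 4.3.3) with Benjamini-Hochberg adjustment over 17800 genes in mESCs, 15958 in MEFs and 19312 in the fit of all 11 libraries, and called at an adjusted p of 0.05 or less. The script was tested on simulated data. CPM values use TMM within a cell type, except between cell types, where they use the joint fit. A fold against a group at 0 used a floor of 3 counts per library. A printed ratio to a group with 1 to 10 counts in all got a 95% exact interval, which covers counting error only. Log2 fold changes from the fits carry no such interval, also where the KO group had 1 to 10 counts. Among these in MEFs were Kcna1, Cacna1e, Kcnn2, Scn8a, Kcne4, Kcnk3 and Cacna2d3. The sample titles do not state that MEF replicate numbers pair the libraries, and this was read from the values alone. The deviations of same-numbered libraries from their group means correlated at 0.473, 0.161 and 0.24, and those of differently numbered ones at -0.262 to 0.052. Deviations within a group cancel, so these values constrain one another. Libraries are separate lines or embryos per the study's methods.

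The genes, classes, marker and partner lists were chosen with earlier results of these data known. Named were all called genes up to 14 a direction and otherwise the 14 with the largest change, the most abundant members, the 5 largest differences a direction between WT groups, up to 10 interaction genes, and the sodium channels and anoctamins. Some genes the rule names are not reported here. Alternatives were other normalizations and filters, DESeq2 1.42.0, a GC correction, the replicate block, the joint fit, the study's thresholds and leaving out each library. Marker lists without values above were endothelium (0 of 5 tested called by edgeR in MEFs, 2 at an unadjusted p under 0.05 and 2 by DESeq2, and 1 lower of 5 in mESCs), epithelium (2 higher of 4 and 1 higher of 7) and erythroid (1 higher of 1 in MEFs).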

Additional observations from a re-analysis of the deposited data

Results flagged for a closer look

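The effect of genotype in MEFs differed from that in mESCs by the interaction test for the channel genes given here, under 1 contrast in 2 cell types. The log2 differences (MEF effect minus mESC effect) were -9.06 for Kcnk12, -8.40 for Cacna2d3, -6.60 for Kcne1l, -6.40 for Kcnn2, -5.53 for Cacna1h, -5.47 for Cacng6, -4.77 for Kcna6, -4.55 for Kcnj4, -4.53 for Kcnmb4, -3.12 for Kcnd1, -3.07 for Cacna1a, -3.07 for Scn8a and -1.57 for Ano10. They were 3.02 for Kcnk5, 3.84 for Kcnt2, 4.21 for Ano9 and 4.44 for Kcna7. The effects behind them, from the same fit, were 1.98 in mESCs and -3.49 in MEFs for Cacng6, 0.50 and -2.57 for Cacna1a, 1.46 and -0.11 for Ano10, -1.86 and 1.98 for Kcnt2, and -0.49 and 2.54 for Kcnk5. Kcnk12, Cacng6 and Ano9 did not pass the count filter in MEFs alone, and Cacna2d3, Kcne1l and Kcna6 did not in mESCs alone. The differences of Cacna2d3, Kcne1l and Kcna6 thus rest on the change in MEFs. Kcnd1 was called in 16 of 17 alternative settings and Kcnt2 in 15 of 17, and Ano10 and Kcnk5 in 6 of 17.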

How the results depend on the processing

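No called channel gene changed direction in any alternative fit that tested it (0 of 150 fits of a gene in mESCs, 340 in MEFs, 1045 between the WT groups and 294 for the difference of effects). These fits reuse the libraries in which the genes were called. A change of direction was therefore unlikely from the start, and its absence is no independent support. In mESCs (5 higher, 6 lower) DESeq2 called 11 and 11, the joint fit 1 and 0, and the study's thresholds left 2 lower. Leaving out 1 library gave 0 to 6 higher and 0 to 7 lower. The mESC numbers are not shown to pair libraries (r = 0.008 and -0.172), and a replicate block there gave 7 higher and 5 lower. In MEFs (3 higher, 21 lower) a minimum of 10 counts in every library gave 1 and 4, DESeq2 7 and 41, the joint fit 8 and 43, the replicate block 5 and 34, and the study's thresholds 10 lower. Leaving out 1 library gave 1 to 8 higher and 2 to 16 lower. Between WT groups (42 higher, 23 lower) the minimum of 10 counts gave 9 and 2, and leaving out 1 library 29 to 49 and 16 to 24. For the difference of effects (4 higher, 14 lower) the minimum of 10 counts gave 2 and 5, DESeq2 27 lower, the replicate block 2 and 8, and leaving out 1 library 0 to 6 and 1 to 20, with 1 lower without WT mESC replicate 1 and 2 without WT mESC replicate 2. A threshold of 1 in place of 10 for expression gave 97 genes in mESCs and 101 in MEFs. Fewer genes can pass the 10-count minimum, since low KO libraries fail it. The cause of the other changes was not tested. The share of all genes called was taken only for the main fits, the study's thresholds, the MEF replicate block and DESeq2 in mESCs. For the other settings a change in calls over all genes cannot be told apart from one in the channel genes. Of single-gene results in MEFs, 114 lost their call, 36 gained one and 481 stayed on their side of the threshold, called or not. These numbers were 50, 15 and 452 in mESCs, and 102, 15 and 733 for the difference of effects. At this depth, levels near 0.0605 to 0.0869 CPM cannot be told from 0.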

Other observations

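Among the channel genes that did not pass the count filter in MEFs, some were read mainly from 1 library. Kcnj5, an inward rectifier of heart and endocrine cells, reached 6.38 CPM in KO replicate 2 and at most 1.43 CPM elsewhere. Kcnh5 reached 3.32 CPM in WT replicate 1 and at most 0.610 CPM elsewhere, and Kcnip4, an A-type channel partner, 2.40 CPM in WT replicate 2 and at most 0.150 CPM elsewhere. Kcnc1 and Kcna2 peaked in WT replicate 1 as well, at 1.46 and 1.163 CPM.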
